A study of Mus musculus with 8 samples.

Results

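The genes of the HBO1 acetyltransferase complex, together with Tox and its relative Tox4, were described in mouse CD8 T cells made to express a TOX construct. The set held 10 genes chosen by symbol: Tox, Tox4, Kat7, Brpf1, Brd1, Brpf3, Jade1, Jade2, Ing4 and Meaf6. Each had 1 row among the 31815 genes of the count table, and 10 of 10 passed the filter on low counts that left 13329 genes for testing. The cells were naive CD8 splenocytes of OTI mice (C57BL/6-Tg(TcraTcrb)1100Mjb/J), whose transgenic T cell receptor recognises an ovalbumin peptide. They were cultured with that peptide for 3 days, transduced at 24 hours with a vector carrying IRES-GFP, and sorted on day 5. The 4 groups, each of 2 libraries, were the brightest 20% of GFP-positive cells given TOXFL (TOXFL-positive), GFP-negative cells given TOXFL (TOXFL-negative), the brightest 20% of GFP-positive cells given TOXdeltaN (TOXdeltaN-positive) and GFP-negative cells given TOXdeltaN (TOXdeltaN-negative). All groups shared the receptor transgene, the peptide culture and the exposure to a vector, so GFP-negative cells are those of a transduced culture that lacked the reporter. Cells given GFP alone were not analysed here, so the effects of a TOX construct and of transduction itself cannot be told apart. The labels do not say whether replicates were separate animals or cultures, and p-values measure the spread between these libraries only. The extent of the deletion in TOXdeltaN is not given in the sources used here.

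TOX, which carries an HMG box and acts in the nucleus, is induced by chronic T cell receptor signalling and is known for its part in the programme of exhausted CD8 T cells. TOX has been described as binding members of the HBO1 complex. In that complex KAT7 (also called HBO1) is the catalytic subunit, a MYST-family enzyme that acetylates lysines on the tails of histones H3 and H4. A scaffold of the BRPF or of the JADE family sets which histone is acetylated, an ING protein reads methylated histone H3, and MEAF6 is a small subunit that holds the assembly together.

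Tox has 3 relatives with a closely similar HMG box, and their coding sequences are shown because counts assigned to Tox would be unreliable if reads could not be placed among the family. Each pair below shows the longest run of bases shared by a Tox transcript and a relative's transcript (GENCODE M21, GRCm38), in capitals, with 12 bases of each gene on either side in lower case.
Tox, exon 5, beside Tox2: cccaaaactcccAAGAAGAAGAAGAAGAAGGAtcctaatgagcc
Tox2, exon 5: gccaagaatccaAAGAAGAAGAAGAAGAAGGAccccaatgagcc
Tox, exon 4, beside Tox3: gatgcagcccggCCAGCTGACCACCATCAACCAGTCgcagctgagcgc
Tox3, exon 4: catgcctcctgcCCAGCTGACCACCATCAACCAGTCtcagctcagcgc
Tox, exon 5, beside Tox4: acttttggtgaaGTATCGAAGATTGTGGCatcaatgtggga
Tox4, exon 6: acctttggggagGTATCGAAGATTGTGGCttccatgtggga
The shared runs were 20 bases with Tox2, 24 bases with Tox3 and 17 bases with Tox4, and no run of 25 bases was common to Tox and any of these transcripts. In Tox they lie on the minus strand at chr4:6722292-6722311, chr4:6741425-6741448 and chr4:6722175-6722191. In the relatives they lie at chr2:163315849-163315868 on the plus strand, chr8:90258014-90258037 on the minus strand and chr14:52287478-52287494 on the plus strand.

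The libraries held between 25059112 and 31240067 counts, with a count for 16577 to 16943 genes. Markers of CD8 T cells summed to between 4401 and 4907 TMM-scaled CPM (counts per 1000000, with library sizes scaled by TMM) in the 8 libraries. Of these 7 markers none passed without the replicate block, and Cd8b1, a chain of the CD8 coreceptor, fell with it by 0.35 with TOXFL and by 0.31 for the mean of both constructs on the log2 scale (adjusted p = 0.0345 and 0.00611 by edgeR). With the length correction added Cd8b1 passed with both constructs, with log2 fold changes of -0.38 for TOXFL and -0.40 for TOXdeltaN. For the mean effect in that fit Cd2 passed as well, with a log2 fold change of -0.23 (adjusted p = 0.0206 by edgeR). That made 2 of 7 markers lower, where 1620 of 13329 genes were called either way. With the block alone, 3.48% of all genes were called for TOXFL and 12.7% for the mean. The part of these marker changes in the other results was not tested. Markers of CD4 T cells, myeloid cells and NK cells summed to at most 4.45, 3.01 and 1.78 CPM in any library, with Adgre1 and Clec9a of the myeloid list at 0 throughout. The B cell list summed to between 13.99 and 17.5 CPM, nearly all of it Cd79b. Its sums were 14.47 to 16.41 CPM in TOXFL-positive and 16.4 to 17.36 CPM in TOXFL-negative libraries. They were 13.99 to 14.11 CPM in TOXdeltaN-positive and 16.92 to 17.49 CPM in TOXdeltaN-negative libraries. With the block and the length correction Cd79b was called lower for the mean effect, 1 of 2 tested genes of that list, beside the 1620 of 13329 above. Its part in the other results was not tested either. One library stood apart: in TOXdeltaN-positive replicate 2, the log2 deviation from the mean of the libraries had a slope of -0.151 per doubling of gene length, the steepest of the 8. These slopes ran from -0.151 to 0.00108 in the GFP-positive libraries and from 0.0101 to 0.0799 in the GFP-negative libraries, so values are also given with a correction for gene length where it matters. Levels of 5 of the 10 genes (Tox4, Kat7, Brpf1, Brd1 and Brpf3) were lowest of all libraries there, against 25.9% of all tested genes. Only 1 of the 10, Meaf6, was highest there, against 25.4% of all tested genes. In bulk RNA, fewer cells of a type and less RNA per cell cannot be told apart.

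Tox was the only one of the 10 genes whose change with GFP status passed the test. It had 105 and 126 CPM in TOXFL-positive cells, against 25.1 and 34.4 CPM in TOXFL-negative cells. TOXdeltaN-positive cells had 107 and 82.9 CPM, and TOXdeltaN-negative cells had 21.8 and 32.2 CPM. All 4 GFP-positive libraries lay above all 4 GFP-negative libraries. The Tox count can hold reads of the vector insert beside those of the mouse locus, and the reads were not separated here. These levels are thus a check on the labels and not a measure of the endogenous locus. Tox rose 3.89-fold in TOXFL-positive cells (log2 fold change 1.96, SE 0.219, 95% interval 1.47 to 2.45), with an adjusted p of 0.0297 by edgeR's quasi-likelihood test over all genes. It rose by 1.82 on the log2 scale in TOXdeltaN-positive cells (SE 0.219, adjusted p = 0.0419). The mean of both effects was 1.89 (SE 0.155, adjusted p = 0.00208). The calls for each construct depended on single libraries. For TOXFL the call was lost without TOXFL-positive replicate 2 (adjusted p = 0.253 by edgeR), TOXFL-negative replicate 1 (0.533) or TOXFL-negative replicate 2 (0.103). For TOXdeltaN it held in 1 of the 8 fits with a library left out, that without TOXdeltaN-positive replicate 1, and the adjusted p in the others reached 0.311. For the mean of both it held in 8 of 8. With the replicate number as a block the adjusted p was 0.00134 for TOXFL and 0.00293 for TOXdeltaN, and of these the TOXdeltaN call was lost without TOXdeltaN-negative replicate 1 (adjusted p = 0.103).

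The constructs could not be told apart by Tox counts. That comparison sets cells given an intact and a deleted insert beside each other and does not measure an effect on the mouse locus. The TOXFL fold change minus the TOXdeltaN fold change was 0.14 on the log2 scale, with a 95% interval of -0.54 to 0.82 and an adjusted p of 1 by edgeR. TOXFL-positive against TOXdeltaN-positive cells gave a log2 difference of 0.28 (95% interval -0.19 to 0.75), and the libraries overlapped, since 107 CPM in TOXdeltaN-positive replicate 1 exceeded 105 CPM in TOXFL-positive replicate 1. The gene lies at chr4:6686353-6991557 on the minus strand of GRCm38, and 260 of its exonic bases overlap Gm11802 on the opposite strand, from which an unstranded library cannot separate it.

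Tox2 and Tox3 were near absent. Tox2 had 5 and 10 counts in TOXFL-positive, 2 and 4 in TOXFL-negative, 5 and 4 in TOXdeltaN-positive and 12 and 10 in TOXdeltaN-negative libraries. Tox3 had between 0 and 5 counts in any library. Neither passed the filter, so neither was tested.

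Tox4 encodes a TOX-family protein that belongs to a nuclear phosphatase complex with PP1, PNUTS (Ppp1r10) and WDR82. It had 172 and 196 CPM in TOXFL-positive cells, against 184 and 193 CPM in TOXFL-negative cells. TOXdeltaN-positive cells had 173 and 154 CPM, against 185 and 178 CPM in TOXdeltaN-negative cells. The TOXFL libraries overlapped, and both TOXdeltaN-positive libraries lay below both TOXdeltaN-negative ones. The log2 fold changes were -0.04 for TOXFL (95% interval -0.27 to 0.19, adjusted p = 0.911 by edgeR) and -0.15 for TOXdeltaN (95% interval -0.38 to 0.08, adjusted p = 0.566). Tox and Tox4 can be set beside each other only per length: in CPM per kb of exon, Tox made up 9.70% to 14.2% of the sum of both in GFP-negative libraries (13.7% to 19.7% with the longest transcript as the length). No such share is given for GFP-positive libraries, whose Tox counts can include the vector insert, of a length not given in the sources used here. Exons of Tox4 (chr14:52279146-52296401, plus strand) overlap Mettl3 by 933 and Rab2b by 195 bases, both on the opposite strand.

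**Figure D1:**
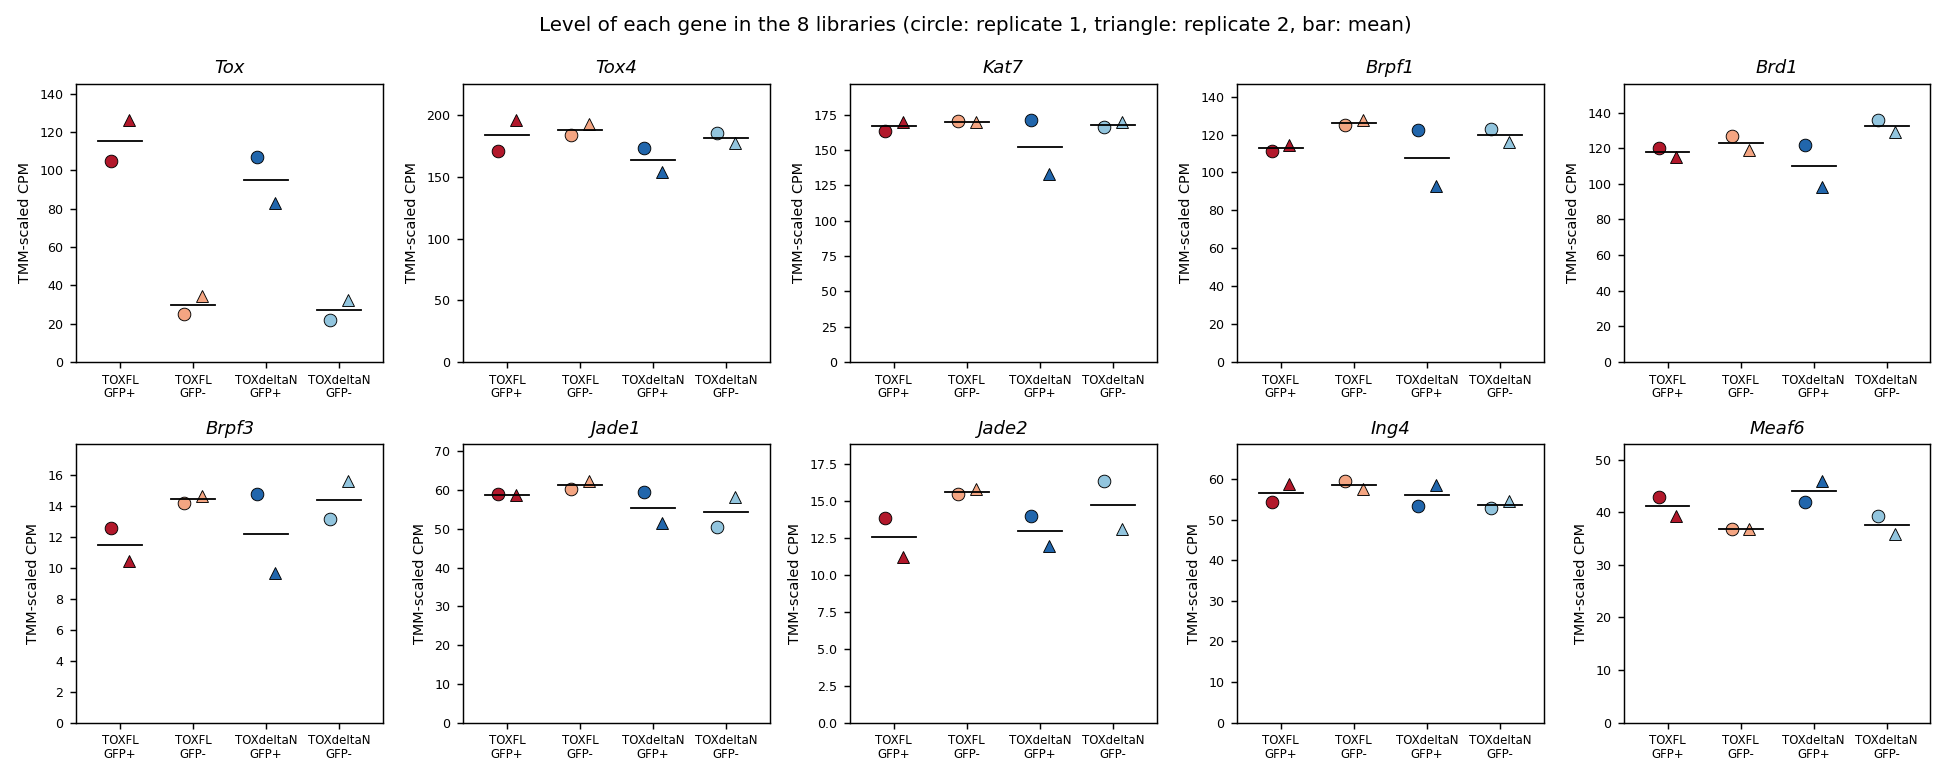
Level in TMM-scaled CPM (vertical axis, from 0) of each of the 10 genes in the 4 groups, with circles for replicate 1, triangles for replicate 2 and bars for group means. Tox separates the GFP-positive from the GFP-negative libraries, 82.9 CPM or more against 34.4 CPM or less, and the low triangle in TOXdeltaN-positive cells recurs for Kat7, Brpf1, Brd1 and Brpf3.

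Kat7, the catalytic subunit, did not pass the test for either construct. It had 164 and 170 CPM in TOXFL-positive cells, against 170.4 and 169.5 CPM in TOXFL-negative cells, and the groups overlapped. TOXdeltaN-positive cells had 171 and 133 CPM, against 166 and 169.5 CPM in TOXdeltaN-negative cells, so the low value came from replicate 2 alone. The log2 fold change was -0.03 for TOXFL (SE 0.117, 95% interval -0.29 to 0.24, adjusted p = 0.943 by edgeR). It was -0.14 for TOXdeltaN (SE 0.117, 95% interval -0.40 to 0.12, adjusted p = 0.630), and 0.030 without TOXdeltaN-positive replicate 2. Kat7 lies at chr11:95274259-95310246 on the minus strand and shares no exonic base with another annotated gene.

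The 3 BRPF scaffolds, which direct the enzyme to histone H3, each had a lower mean in GFP-positive cells with both constructs, and none passed the test. Lower means with both constructs were not particular to them, since Tox4, Kat7 and Jade2 had them too. For Brpf1 and Brpf3 with TOXdeltaN, the lower mean came from replicate 2 alone. Brpf1, a scaffold that also serves the sister enzymes MOZ (Kat6a) and MORF (Kat6b), had 111 and 114 CPM in TOXFL-positive against 125 and 128 CPM in TOXFL-negative cells. TOXdeltaN-positive cells had 122 and 92.7 CPM, against 123 and 116 CPM in TOXdeltaN-negative cells. The TOXFL groups did not overlap, whereas the TOXdeltaN groups did, and the log2 fold changes were -0.16 and -0.15 (adjusted p = 0.621 and 0.623 by edgeR). Brd1, also known as BRPF2, had 120 and 115 CPM in TOXFL-positive against 127 and 119 CPM in TOXFL-negative cells. TOXdeltaN-positive cells had 122 and 98.0 CPM, against 136 and 129 CPM in TOXdeltaN-negative cells. Here only the TOXdeltaN groups stood apart, with a log2 fold change of -0.27 (SE 0.114, unadjusted p = 0.0404, adjusted p = 0.393 by edgeR), against -0.06 for TOXFL (adjusted p = 0.853). Brpf3 was expressed far lower, with 12.6 and 10.4 CPM in TOXFL-positive against 14.2 and 14.7 CPM in TOXFL-negative cells. TOXdeltaN-positive cells had 14.7 and 9.63 CPM, against 13.1 and 15.6 CPM in TOXdeltaN-negative cells. The TOXFL groups stood apart and the TOXdeltaN groups overlapped. Its log2 fold changes, -0.33 and -0.24, were the widest in error of the 3 (SE 0.205 each, adjusted p = 0.535 and 0.646 by edgeR).

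The JADE scaffolds, which direct the enzyme to histone H4, split by level. Jade1 had 58.9 and 58.7 CPM in TOXFL-positive against 60.2 and 62.4 CPM in TOXFL-negative cells, and 59.4 and 51.6 CPM in TOXdeltaN-positive against 50.6 and 58.3 CPM in TOXdeltaN-negative cells. The TOXFL-positive libraries lay just below both TOXFL-negative ones, and the TOXdeltaN groups overlapped. Its log2 fold changes were -0.06 and 0.03, with 95% intervals of -0.31 to 0.18 and -0.22 to 0.27 (adjusted p = 0.848 and 0.935 by edgeR). Jade2 had 13.8 and 11.2 CPM in TOXFL-positive against 15.4 and 15.8 CPM in TOXFL-negative cells, with no overlap. TOXdeltaN-positive cells had 13.9 and 11.9 CPM, against 16.4 and 13.1 CPM in TOXdeltaN-negative cells, with overlap. Its log2 fold changes of -0.32 and -0.18 did not pass (adjusted p = 0.452 and 0.657 by edgeR). The remaining JADE gene, Jade3, was no member of the set and lay between 8.35 and 16.7 CPM.

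Ing4, the subunit whose PHD finger reads trimethylated histone H3, held nearly one level throughout. It had 54.2 and 58.7 CPM in TOXFL-positive against 59.6 and 57.4 CPM in TOXFL-negative cells, and 53.4 and 58.6 CPM in TOXdeltaN-positive against 52.9 and 54.5 CPM in TOXdeltaN-negative cells. Both pairs of groups overlapped, with log2 fold changes of -0.05 and 0.06 and 95% intervals of -0.27 to 0.17 and -0.16 to 0.28. Of its exonic bases, 1855 overlap Gm44597 on the same strand, so part of the count could be divided between them.

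Meaf6 was the only member besides Tox with higher values in GFP-positive cells for both constructs. It had 42.9 and 39.3 CPM in TOXFL-positive cells, against 36.8 and 36.9 CPM in TOXFL-negative cells. TOXdeltaN-positive cells had 41.9 and 46.0 CPM, against 39.4 and 35.9 CPM in TOXdeltaN-negative cells. Neither pair of groups overlapped, although over all libraries 39.3 CPM in a TOXFL-positive library lay just below 39.4 CPM in a TOXdeltaN-negative one. The mean of both log2 fold changes was 0.19 (95% interval 0.02 to 0.36), with an unadjusted p of 0.0291 and an adjusted p of 0.178 by edgeR, which does not pass.

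**Figure D2:**
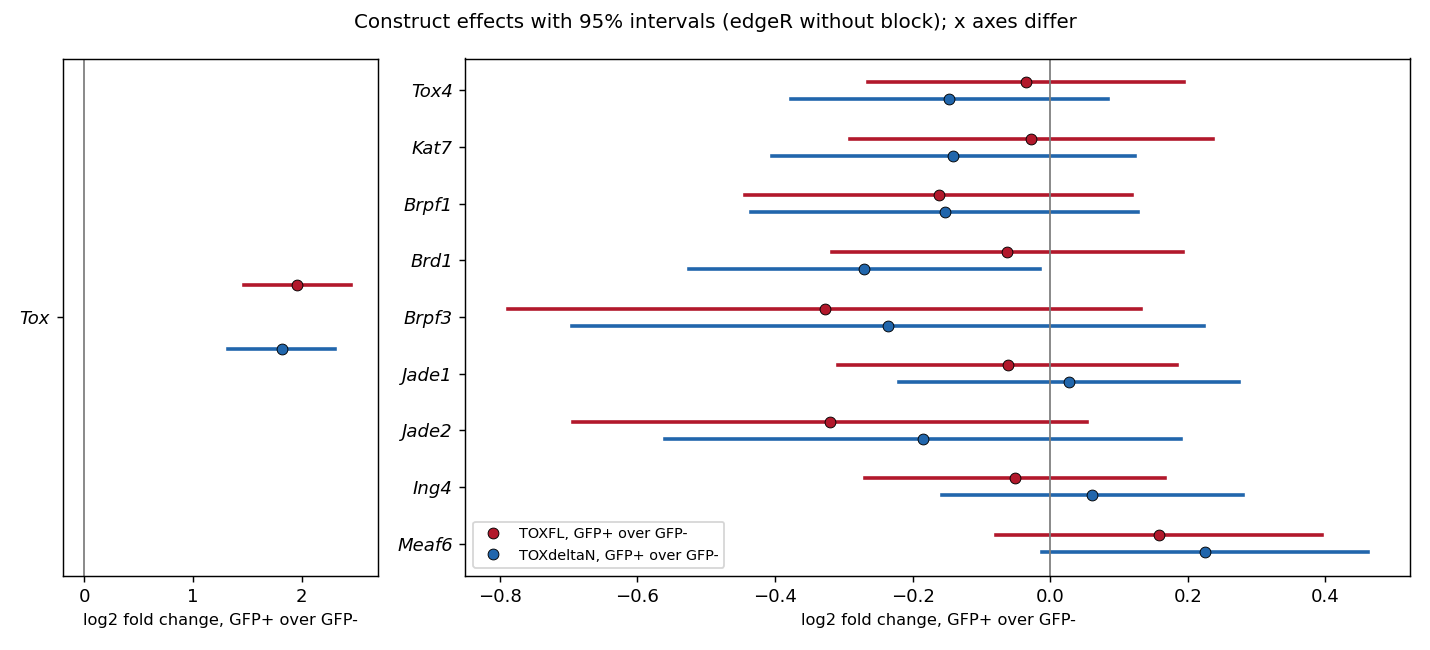
Log2 fold change of GFP-positive over GFP-negative cells (horizontal axes, with separate scales for Tox and for the other 9 genes) for TOXFL (red, upper) and TOXdeltaN (blue, lower), with 95% intervals from edgeR as lines. Both intervals for Tox lie above 0, and those of the other genes include 0 except that for Brd1 with TOXdeltaN, whose adjusted p was 0.393.

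Counted over the set, 1 of 10 genes passed an adjusted p of 0.05 with TOXFL, where 0.045% of all tested genes did. With TOXdeltaN 1 of 10 passed, beside 0.03% of all genes, and with the mean of both effects 1 of 10, beside 2.42%. That gene was Tox each time, whose counts can include the vector insert, and none of the other 9 passed. For the other 9 the median log2 fold change was -0.06 with TOXFL (range -0.33 to 0.16, adjusted p from 0.452 to 0.943) and of -0.15 with TOXdeltaN (range -0.27 to 0.22, adjusted p from 0.393 to 0.935). The medians of all tested genes were -0.003 and 0.0054. With the replicate block and the length correction the medians of these 9 genes were -0.005 with TOXFL and -0.078 with TOXdeltaN. With the replicate block, which raised the shares of all genes called to 3.48%, 1.65% and 12.7%, still none of the other 9 genes passed. Groups that do not overlap were common at 2 libraries a side: 6 of 10 members with TOXFL, beside 50.4% of all genes, and 4 of 10 with TOXdeltaN, beside 42.0%. With all 4 GFP-positive against all 4 GFP-negative libraries, Tox alone stood apart, beside 16.3% of all genes.

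A single library could change the size of some of these effects. Without TOXdeltaN-positive replicate 1, which leaves only replicate 2 in that group, Kat7, Brpf1 and Brd1 fell with TOXdeltaN by 0.34, 0.37 and 0.44 on the log2 scale. For the mean of both effects Kat7, Brpf1, Brd1 and Brpf3 had log2 fold changes of -0.18, -0.27, -0.25 and -0.45 in that fit. In that fit the lone library is assumed to vary like the other groups, so its calls are not read as a result about these genes. Without TOXdeltaN-positive replicate 2 instead, the log2 fold changes were 0.030 for Kat7, 0.032 for Brpf1 and -0.12 for Brd1.

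No member passed a test of the difference between constructs. Among 13329 genes, edgeR called 0.0% (0 genes) for the difference of the effects, where 318 reached an unadjusted p of 0.05. DESeq2, run on all genes with a count, gave 5 calls, so tool and filter differ together here and below. Between TOXFL-positive and TOXdeltaN-positive cells edgeR likewise called 0.0% (0 genes), with 768 at that unadjusted level and 18 called by DESeq2. Between TOXFL-negative and TOXdeltaN-negative cells it called 0.0% (0 genes), with 328 at that level and 5 called by DESeq2. Members with an unadjusted p under 0.05 numbered 0 in each, beside 2.39%, 5.76% and 2.46% of all genes in that order. For Kat7 the difference of the effects was 0.11 on the log2 scale with a 95% interval of -0.26 to 0.49, and for Brd1 it was 0.21 with an interval of -0.15 to 0.57, so differences of that size could not be resolved here.

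Levels can be ordered between genes when counts are divided by length, here in CPM per kb of all annotated exons, averaged over the 8 libraries. Kat7 was highest at 29.7 ± 2.3 and Tox4 followed at 25.8 ± 1.9 (SD, n = 8), and their ranges overlapped. Brpf1 at 17.2 and Brd1 at 14.4 came next, overlapping each other and lying below every value of Tox4. Ing4 at 10.6, Tox at 8.78, Meaf6 at 7.65 and Jade1 at 6.77 each overlapped the next in order. Tox spanned from 2.87 in a GFP-negative to 16.6 in a GFP-positive library, where any vector reads are divided by the length of the mouse gene. On this scale Tox lay above the range of Ing4 in 3 of the 4 GFP-positive libraries. It lay below that of Jade1 in all GFP-negative ones. Brpf3 at 1.52 and Jade2 at 1.30 were lowest and overlapped each other. With the longest transcript as the length, Tox moved above Ing4, Jade1 above Meaf6 and Jade2 above Brpf3.

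RNA shares among the scaffold, ING and enzyme genes are given as ranges over the 8 libraries, and differences between groups were not tested. Other enzymes use some of these scaffolds, so the shares do not give the make-up of a single assembly. BRPF scaffolds were 73.9% to 78.4% of the summed BRPF and JADE levels per kb, Jade3 included. Brpf1 was 49.9% to 54.3% of the BRPF sum and Jade1 60.2% to 69.1% of the JADE sum. Ing4 was 48.8% to 54.1% of Ing4 plus Ing5, the other ING protein of the complex. Kat7 was 79.5% to 83.3% of the sum of Kat7, Kat6a and Kat6b. RNA shares say nothing of the amounts of protein.

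**Figure D3:**
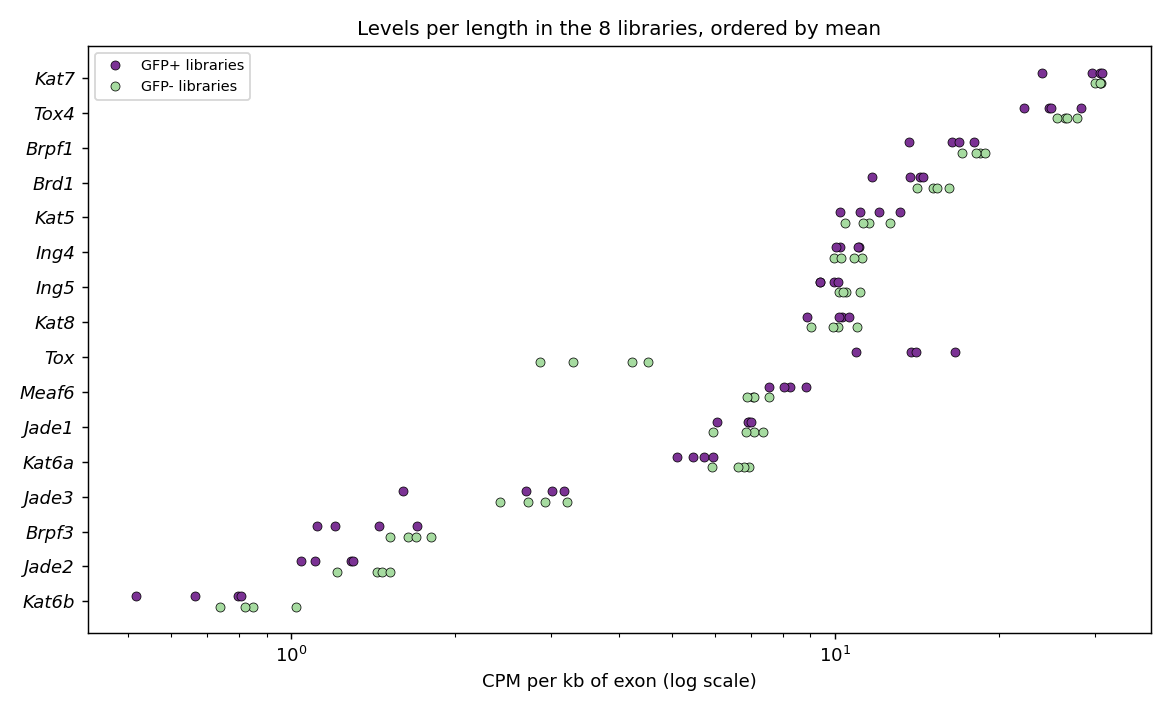
CPM per kb of annotated exon (horizontal axis, log scale) in each library for the 10 genes and 6 related ones, ordered by mean from top, with GFP-positive libraries in purple above GFP-negative libraries in green. Kat7 at 29.7 and Tox4 at 25.8 lead, and Tox is the only gene whose purple and green points are separated by a wide gap.

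The related genes were taken from lists of complexes. Of 6 other MYST enzymes and HBO1 partners (Kat5, Kat6a, Kat6b, Kat8, Ing5 and Jade3), none passed without the replicate block. This held for TOXFL, TOXdeltaN and the mean of both, beside 0.045%, 0.03% and 2.42% of all genes called. The list median was -0.12 for the mean effect. Per kb of exon they averaged 11.5 CPM for Kat5, the TIP60 enzyme, 10.1 for Ing5, 9.99 for Kat8, the enzyme of the MSL and NSL complexes, 6.07 for Kat6a, 2.72 for Jade3 and 0.777 for Kat6b. Kat6a, encoding the MOZ acetyltransferase that uses the same BRPF scaffolds, had 52.6 and 50.3 CPM in TOXFL-positive against 63.7 and 62.4 CPM in TOXFL-negative cells, and 54.8 and 46.9 CPM in TOXdeltaN-positive against 60.7 and 54.5 CPM in TOXdeltaN-negative cells. Its mean log2 fold change of -0.24 had an adjusted p of 0.121 by edgeR and passed with the replicate block (adjusted p = 0.0389), but not with the block and a correction for gene length (adjusted p = 0.1195). The blocked call was 1 of 6 in this list, beside 12.7% of all genes. Of the 4 ING relatives none passed in any of these fits.

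Of the 5 genes listed for the phosphatase complex of TOX4, none passed without the replicate block and 1, Wdr82, passed with it. With the block, 3.48% of all genes were called for TOXFL, 1.65% for TOXdeltaN and 12.7% for the mean effect. Wdr82, a WD-repeat protein that also serves histone H3 methyltransferases, had 152 and 116 CPM in TOXFL-positive cells, against 268 and 211 CPM in TOXFL-negative cells. TOXdeltaN-positive cells had 206 and 157 CPM, against 264 and 203 CPM in TOXdeltaN-negative cells. Within each replicate number the GFP-positive value was lower, with no overlap for TOXFL and overlap for TOXdeltaN. The log2 fold changes were -0.84 for TOXFL and -0.36 for TOXdeltaN, and neither passed by edgeR without the block (adjusted p = 0.135 and 0.470). With the replicate block Wdr82 fell by 0.84 with TOXFL (SE 0.0758, adjusted p = 0.0011) and by 0.36 with TOXdeltaN (SE 0.0753, adjusted p = 0.0478). In that blocked fit the TOXFL call held with each library left out, while the TOXdeltaN call held in 2 of 8, those without a TOXdeltaN-positive library, with adjusted p up to 0.554 without TOXdeltaN-negative replicate 2, and was lost with the length correction added (adjusted p = 0.0563). The difference of the constructs' effects was -0.48 in the blocked fit (95% interval -0.72 to -0.24), with an unadjusted p of 0.00116 and an adjusted p of 0.989. The other 4 genes of that complex list did not pass in any of these fits.

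The other complexes were compared over the mean of both effects. In the TIP60 complex, a MYST complex of its own, 1 of 17 genes fell and none rose, beside 2.42% of all genes called, with a list median of 0.037. That gene was Mbtd1, a reader of methylated histones, with 26.7 and 27.0 CPM in TOXFL-positive against 37.6 and 37.4 CPM in TOXFL-negative cells. TOXdeltaN-positive cells had 27.99 and 30.2 CPM, against 39.5 and 37.3 CPM in TOXdeltaN-negative cells. All 4 GFP-positive libraries lay below all 4 GFP-negative ones, beside 16.3% of all genes that separated either way, and the mean log2 fold change was -0.44 (SE 0.0703, adjusted p = 0.0222 by edgeR). Left out in turn, only the TOXdeltaN-positive libraries could be spared without losing the call, and the adjusted p reached 0.150 without TOXdeltaN-negative replicate 1. The call was also lost with a correction for gene length (log2 fold change -0.30, adjusted p = 0.0879) and held with that correction and the block (adjusted p = 0.0265). With the replicate block alone, Ep400, Epc1 and Trrap of this list fell as well and the helicase gene Ruvbl2 rose, 5 of 17 with Mbtd1, beside 12.7% of all genes. Of these added genes only Epc1, a scaffold subunit, kept its call with the length correction added (log2 fold change -0.32 in both, adjusted p = 0.0421 and 0.0320).

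Among 15 replication licensing genes, whose chromatin steps KAT7 is known to assist, 2 rose and none fell, beside 2.42% of all genes called, with a median log2 fold change of 0.12. Orc6, a subunit of the origin recognition complex, had 62.7 and 64.1 CPM in TOXFL-positive against 48.0 and 50.8 CPM in TOXFL-negative cells, and 60.3 and 76.1 CPM in TOXdeltaN-positive against 49.8 and 51.8 CPM in TOXdeltaN-negative cells. Gmnn, encoding the licensing inhibitor geminin, had 94.9 and 87.6 CPM in TOXFL-positive against 64.2 and 74.6 CPM in TOXFL-negative cells, and 89.2 and 112 CPM in TOXdeltaN-positive against 70.2 and 76.7 CPM in TOXdeltaN-negative cells. For both genes every GFP-positive library lay above every GFP-negative one, where 16.3% of all genes separated in one direction or the other. The mean log2 fold changes were 0.39 for Orc6 (SE 0.0842, adjusted p = 0.0467) and 0.42 for Gmnn (SE 0.092, adjusted p = 0.0474 by edgeR). With a library left out in turn, Orc6 held the call without either TOXdeltaN-positive library and Gmnn without TOXdeltaN-positive replicate 1 alone, with adjusted p in the other fits up to 0.226 and 0.233, both without TOXFL-negative replicate 1. With the length correction the adjusted p was 0.0452 for Orc6 and 0.0502 for Gmnn. With the replicate block Mcm5, Mcm7 and Cdc6, whose products load or form the replicative helicase, were called higher as well, Mcm5 and Mcm7 by 0.25 each and Cdc6 by 0.30 on the log2 scale (adjusted p = 0.0113, 0.0126 and 0.0153 by edgeR), which made 5 of 15 beside 12.7% of all genes. All 5 kept their calls with the length correction added, and Mcm2 was called as well (log2 fold change 0.17, adjusted p = 0.0493 by edgeR). That made 6 of 15, where 1620 of 13329 genes were called.

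**Figure D4:**
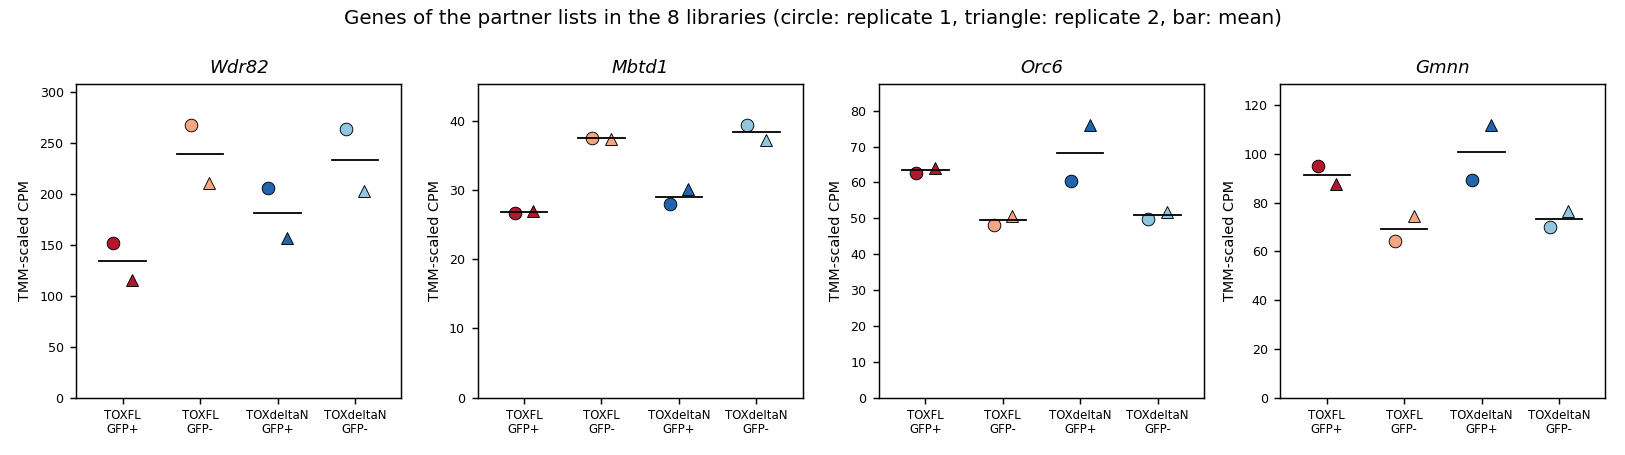
Level in TMM-scaled CPM (vertical axes, from 0) of Wdr82, Mbtd1, Orc6 and Gmnn in the 4 groups, with circles for replicate 1, triangles for replicate 2 and bars for group means. For Mbtd1 the GFP-positive libraries, at 30.2 CPM or less, lie below the GFP-negative ones, and for Orc6 and Gmnn they lie above.

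Without the block no call for the mean effect fell in the remaining lists, which were 12 genes of the MSL and NSL complexes (median -0.10), 6 other histone acetyltransferases (median -0.19), 15 histone deacetylases (median -0.05) and 9 tested of 10 nuclear proteins that bind acetylated histones (median -0.06). With the block 3 of the 6 other acetyltransferases fell and 1 rose. Crebbp, encoding the coactivator CBP, fell by 0.42 (adjusted p = 0.0056 by edgeR), Ep300, encoding its paralog p300, by 0.47 (adjusted p = 0.0425), and Kat2b by 0.28 (adjusted p = 0.0322), while Hat1, which acetylates newly made histone H4, rose by 0.26 (adjusted p = 0.0188). Crebbp had 120 and 87.0 CPM in TOXFL-positive against 156 and 140 CPM in TOXFL-negative cells, and 120 and 105 CPM in TOXdeltaN-positive against 144 and 135 CPM in TOXdeltaN-negative cells. Ep300 had 154 and 125 CPM in TOXFL-positive against 186 and 171 CPM in TOXFL-negative cells. TOXdeltaN-positive cells had 157 and 76.6 CPM of Ep300, against 174 and 158 CPM in TOXdeltaN-negative cells. Its lowest value by far was thus in TOXdeltaN-positive replicate 2, the library with the steepest length slope. In the same fit Ogt and Msl2 fell in the MSL and NSL list, Hdac4 in the deacetylase list and Brd2 among the acetyl-binding proteins. Adding the length correction ended the calls of Ep300, Hdac4 and Brd2 (adjusted p = 0.0559, 0.263 and 0.0913), and added one for Naa40, which rose by 0.22 (adjusted p = 0.0288). These counts stand beside 12.7% of all genes called in the blocked fit, and 1620 of 13329 with the length correction added.

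**Figure D5:**
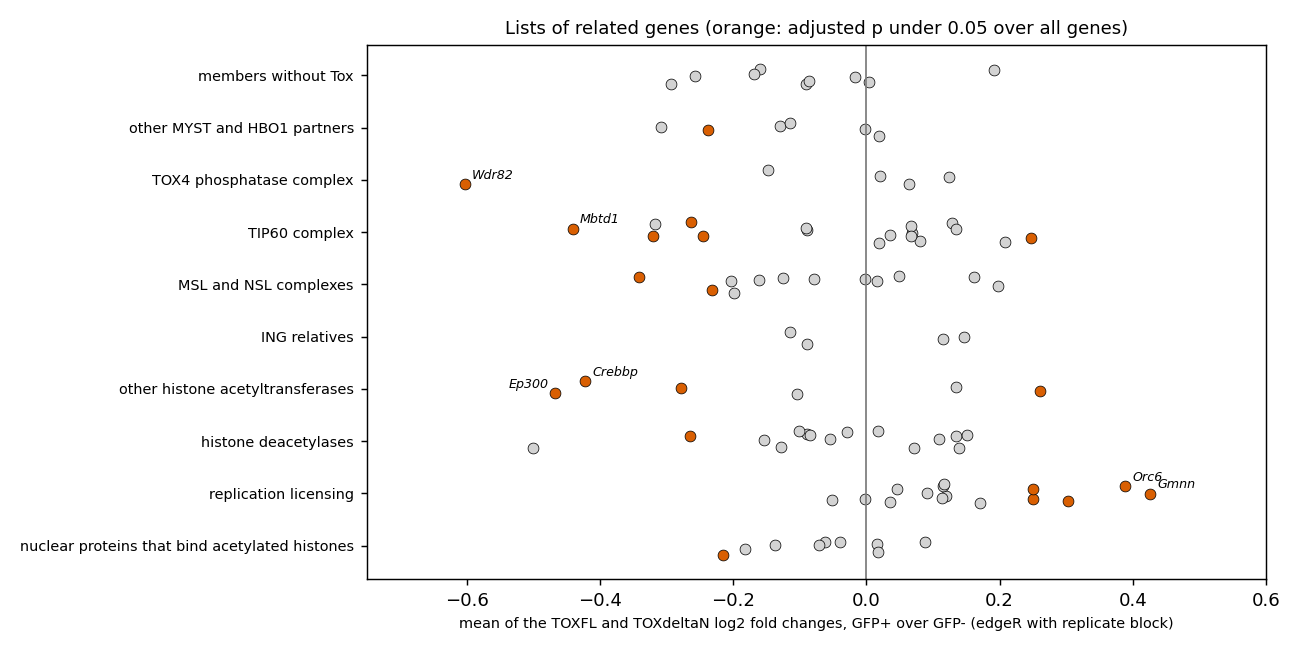
Mean of the TOXFL and TOXdeltaN log2 fold changes, GFP-positive over GFP-negative (horizontal axis), from edgeR with the replicate block, for each tested gene of the lists, spread vertically within a list for legibility. Orange points have an adjusted p under 0.05 over all genes, and the row of the 9 members other than Tox has none.

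The genes whose profile was nearest to that of Tox were named by the root mean square difference of centred log2 levels over the 8 libraries, among 9053 other genes above 8 CPM. They were Asb2 (0.392), Ier5l (0.405), Serpine2 (0.429), Tubb6 (0.465) and Cdkn1a (0.467), while a flat profile stood at 0.981 from Tox. The Tox profile separates by GFP status and can include vector reads, so nearness to it is not read as shared control with the mouse locus. Each of the named genes was higher in replicate 2 than in replicate 1 of TOXdeltaN-positive cells, where Tox fell from 107 to 82.9 CPM. Serpine2, a secreted protease inhibitor, had 112 and 212 CPM in TOXFL-positive against 31.8 and 67.2 CPM in TOXFL-negative cells, and 106 and 172 CPM in TOXdeltaN-positive against 38.1 and 75.3 CPM in TOXdeltaN-negative cells. Cdkn1a, the cell cycle inhibitor p21, had 46.2 and 62.1 CPM in TOXFL-positive against 18.8 and 26.5 CPM in TOXFL-negative cells, and 49.7 and 78.4 CPM in TOXdeltaN-positive against 20.9 and 32.2 CPM in TOXdeltaN-negative cells. Among members the nearest to Tox was Meaf6 at 0.907, not far from the flat profile.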

How the data were processed

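RNA from 8 libraries of sorted mouse CD8 T cells (8 ng each) was amplified with SMART-Seq v4 and made into Nextera XT libraries, per the labels' protocols, a procedure that does not keep strand. The deposited table holds expected counts per gene as whole numbers. The submitters' processing notes name bcl2fastq 2.20, cutadapt, STAR 2.6.1, RSEM 1.2.28 and GRCm38, and the annotation release is not given in the sources used here. Of 31907 rows, 92 spike-in rows were at 0 and were left out. Genes were filtered with edgeR's filterByExpr, which kept 13329, scaled by TMM and fitted over the 4 groups with edgeR 4.0.16 (quasi-likelihood, R 4.3.3) with Benjamini-Hochberg adjustment over all of them, with a threshold of 0.05. The members, gene lists and tests were chosen with earlier results of these data known. Named genes are the members, their closest relatives, list genes that passed a fit with or without the block (at most 4 a list, smallest adjusted p first) and the 5 genes nearest to Tox. Trrap, Cdc6, Naa40, Mcm2 and the markers Cd2 and Cd79b lie outside this rule and were added after their values were seen. Trrap and Cdc6 complete a count of 5 in each list. Naa40, Mcm2, Cd2 and Cd79b passed for the mean effect with the block and the length correction, and not with the block alone. The labels number replicates 1 and 2 without saying what they share. Deviations from the group means correlated positively between same-numbered libraries for all 6 pairs of groups (r from 0.168 to 0.241 across tested genes, which are not independent replicates), and blocked values are given where they change a call. Lengths, exons and sequences are from GENCODE M21 (GRCm38). Alternatives were RLE scaling, no filter, DESeq2 1.42.0 (on all genes with a count), limma-voom 3.58.1, the replicate block, a correction for gene length, fits of 2 groups only and leaving out each library.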

Additional observations from a re-analysis of the deposited data

How the results depend on the processing

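The direction and call of Tox held under each scaling, filter, tool, block and length setting, except that its TOXdeltaN call was lost when only those 2 groups were fitted (adjusted p = 0.259), which left 0 members called. Small values turned sign: Tox4 with TOXFL was 0.0054 with the length correction and 0.0043 with it and the block, Jade1 for the mean effect was 0.056 and 0.058, and Ing4 for the mean effect was -0.00083 without the filter. Genes called with TOXFL numbered 6, and 678 without the filter, 308 by DESeq2, 464 with the replicate block, 578 with block and length correction and 2 with 2 groups. With TOXdeltaN they numbered 4, and 516, 115, 220, 281 and 0 under the same settings in that order. For the mean effect they numbered 323, and 1665, 1031, 1697 and 1620 under the first 4. For the difference of effects they numbered 0, and 45 without the filter and 5 by DESeq2. Between GFP-positive groups they numbered 0, and 116, 18, 1, 3 and 1 under the 5 settings, and between GFP-negative groups 0, and 37 and 5 under the first 2.

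With the longest transcript as the length, CPM per kb was 46.1 for Kat7, 33.5 for Tox4, 24.1 for Brpf1, 23.5 for Brd1, 16.9 for Tox, 16.3 for Ing4, 10.3 for Jade1, 8.77 for Meaf6, 2.22 for Jade2 and 1.83 for Brpf3. Leaving out each library in turn gave 0 to 122 genes called with TOXFL, 0 to 1571 with TOXdeltaN, 5 to 2504 for the mean, 0 to 1 for the difference of effects, 0 to 704 between GFP-positive groups and 0 to 1 between GFP-negative groups. Members called ran from 0 to 1, 0 to 4 and 1 to 5 in the first 3 and were 0 in the others. For Tox the log2 fold change ran from 1.75 to 2.21 with TOXFL, 1.56 to 2.12 with TOXdeltaN and 1.76 to 2.04 for the mean. Ranges of members that crossed 0 were, with TOXFL, -0.14 to 0.058 for Tox4 and -0.11 to 0.0038 for Ing4. With TOXdeltaN they were -0.34 to 0.030 for Kat7, -0.37 to 0.032 for Brpf1, -0.58 to 0.034 for Brpf3, -0.081 to 0.13 for Jade1 and -0.0076 to 0.12 for Ing4. For the mean they were -0.18 to 0.0011 for Kat7, -0.071 to 0.036 for Jade1 and -0.029 to 0.037 for Ing4. The largest counts came without TOXdeltaN-positive replicate 1, which leaves only replicate 2 in that group. In that fit the log2 fold changes for the mean effect were -0.296 for Kat6a, -0.707 for Wdr82 and -0.465 for Crebbp. Without TOXFL-positive replicate 1 that of Crebbp was -0.541. With 2 libraries a group, the 95% intervals limit what could be detected.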
